A study of Mus musculus with 12 samples.

Results

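The 10 genes described here are targets or regulators of the unfolded protein response and of the amino acid stress response, and were chosen by name from a list. They are 10 of the 19012 gene symbols in the data, and all 10 passed the filter for low values, which left 11351 genes for testing. Hspa5, Xbp1, Herpud1, Dnajb9 and Sdf2l1 stand for the arm that maintains protein folding in the endoplasmic reticulum (ER). Atf4, Ddit3, Trib3, Asns and Chac1 stand for the arm that runs through the transcription factor ATF4. They were measured by RNA sequencing in 4 liver tumors of mice labelled as double knockout (DKO) for E2F7 and E2F8, in 4 livers of such mice, and in 4 livers of wild-type mice. E2F7 and E2F8 are atypical members of the E2F family that repress transcription. The labels give neither the alleles or the Cre driver of the deletion, nor the age, the sex or the way the tumors arose. Animal codes show that each DKO tumor and the DKO liver with the same number came from 1 mouse, so that every DKO liver came from a tumor-bearing animal.

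When unfolded proteins build up in the ER, the sensors IRE1, PERK and ATF6 are activated. IRE1 splices the Xbp1 messenger RNA into its active form, ATF6 is cleaved into a transcription factor, and PERK phosphorylates the initiation factor eIF2-alpha. That phosphorylation slows translation in general but favours translation of ATF4, and the kinase GCN2 does the same when amino acids run short. The hepatocyte secretes plasma proteins in bulk, so in liver the genes of the ER arm are active under normal conditions. Messenger RNA was measured in RPKM (reads per kilobase of exon, scaled per M library reads), a level per length of exon that shows neither splicing of Xbp1 nor translation of ATF4.

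Letter patterns of known stress elements were searched around the start sites. Short stretches upstream of the start are shown for 4 of the 5 members with a match, all but Trib3, whose match lies after its start. The RefSeq windows (GRCm38.p6) run from 250 bases before to 50 bases after each start, and 10 of 10 members had 1 window. The searched elements, on both strands, were the ER stress response element (ERSE: CCAAT, 9 bases, CCACG), the related ERSE-II (ATTGG, 1 base, CCACG), the unfolded protein response element TGACGTGG, and the C/EBP-ATF response element (CARE: TGATGNAA, with its longer form TGATGNAAT). Every match of the longer CARE is also a match of the shorter. Capitals mark the matches. The Hspa5 stretch is on the plus strand at chr2:34771995-34772073, Herpud1 on the plus strand at chr8:94386287-94386417, Asns on the minus strand at chr6:7693210-7693262 and Chac1 on the plus strand at chr2:119351019-119351086.
Hspa5: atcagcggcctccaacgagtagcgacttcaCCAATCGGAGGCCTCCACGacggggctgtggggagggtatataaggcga
Herpud1: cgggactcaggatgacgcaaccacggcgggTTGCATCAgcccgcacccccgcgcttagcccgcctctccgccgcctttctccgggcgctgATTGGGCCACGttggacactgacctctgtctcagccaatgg
Asns: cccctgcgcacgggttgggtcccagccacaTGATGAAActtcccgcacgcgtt
Chac1: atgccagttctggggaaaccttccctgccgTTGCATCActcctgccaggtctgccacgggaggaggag
Hspa5 held an ERSE at -65 to -47 from the start, a match present in 0.119% of the 32817 RefSeq windows. Herpud1 held an ERSE-II at -52 to -42, present in 0.0366% of windows, and a CARE on the opposite strand at -112 to -105. The CARE was present in 3.97% of windows, and also stood in Asns at -23 to -16, in Chac1 at -193 to -186 and in Trib3 at 15 to 22 bases after the start. The 9-base CARE, in 0.966% of windows, and TGACGTGG, in 0.676%, matched no member. The other 5 members, Xbp1, Dnajb9, Sdf2l1, Atf4 and Ddit3, held none of these letter patterns in this window. A match is a run of letters and was not tested as a binding site.

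None of the 10 genes was called in any of the 3 comparisons with limma, at a Benjamini-Hochberg adjusted p under 0.05 over all 11351 genes. In DKO tumor against wild-type liver 0 of 10 members were called, against 1.9% of all genes tested (216, of which 140 rose and 76 fell). In DKO liver against wild-type liver 0 of 10 members were called, against 0% of all genes. Between DKO tumor and DKO liver 0 of 10 were called, against 0.00881% of all genes, a single gene. Voom on the reads recovered from the RPKM also called 0 members in each comparison. At an unadjusted p under 0.05, limma had 2 of 10 members in DKO tumor against wild-type liver (Atf4 and Ddit3), and 0 in both other comparisons, against 19.2%, 12.4% and 16.1% of all genes. For every member the values of any 2 groups overlapped. Groups were separated in 0 of 10 members in each comparison, against 11.9% of all genes in DKO tumor against wild-type liver, 7.59% between DKO liver and wild-type liver, and 6.2% between DKO tumor and DKO liver. The median log2 difference of the 10 members was 0.29 in DKO tumor against wild-type liver, with 7 positive and 3 negative, beside a median of -0.02 over all genes. In DKO liver against wild-type liver it was -0.05 (4 positive, 6 negative), beside 0.08 over all genes. Between DKO tumor and DKO liver it was 0.21 (7 positive, 3 negative), beside -0.09. These comparisons share samples, so their values are given side by side and are not independent.

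**Figure D1:**
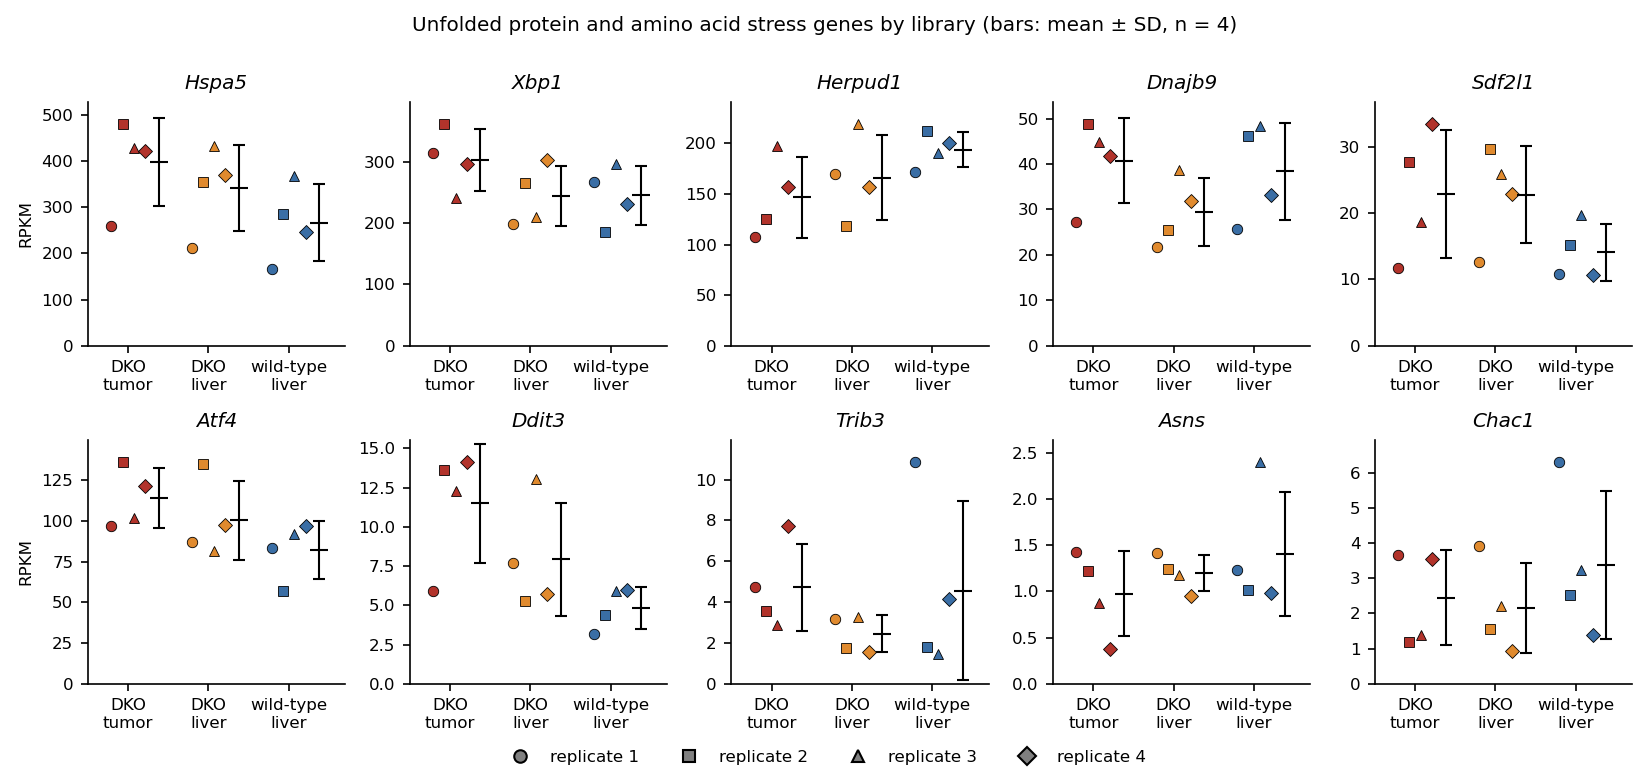
RPKM of the 10 stress genes in each of the 12 libraries, in panels with their own linear axis from 0, with DKO tumors, DKO livers and wild-type livers from left to right. Symbols are libraries, by replicate number, and bars beside them are group means with SD (n = 4). In all panels the groups overlap, and the tumor mean of Ddit3, 11.5 RPKM, has the largest ratio of these 10 to its wild-type mean, 4.85 RPKM.

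The group means of level in DKO tumors ran from 398 RPKM for Hspa5 down to 0.977 RPKM for Asns. Gene positions are given as in the deposited data, on mm9, where a start counted from 0 or 1 is not stated. Hspa5 (chr2:34627614-34631976) encodes BiP, the main HSP70 chaperone of the ER lumen, which also holds the stress sensors inactive. Hspa5 had 261, 481, 429 and 423 RPKM in DKO tumors 1 to 4, 211, 355, 433 and 369.6 RPKM in DKO livers 1 to 4, and 166, 286, 368.5 and 247 RPKM in wild-type livers 1 to 4. DKO tumors 2, 3 and 4 were above every wild-type liver, whereas DKO tumor 1 was below 2 of them, so the groups overlapped. Means were 398 ± 95.5 RPKM in DKO tumors, 342 ± 93.8 in DKO livers and 267 ± 84.3 in wild-type livers (SD, n = 4 each). The log2 difference was 0.60 in DKO tumor against wild-type liver (unadjusted 95% interval of the limma fit -0.04 to 1.24, adjusted p = 0.295), 0.37 for DKO liver against wild-type liver (adjusted p = 0.614) and 0.23 for DKO tumor against DKO liver (-0.41 to 0.87, adjusted p = 0.739). All log2 differences are on the scale of log2(RPKM + 1), which understates changes of genes with low values.

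Xbp1 (chr11:5420969-5425874), the transcription factor activated by IRE1, had 314, 362, 241 and 296 RPKM in DKO tumors, 199, 266, 209 and 302 RPKM in DKO livers, and 268, 185, 297 and 232 RPKM in wild-type livers. DKO tumors 1 and 2 were above all wild-type livers, and DKO tumors 3 and 4 lay within the wild-type range. The mean was 303 ± 50.2 RPKM in DKO tumors, 244 ± 48.4 in DKO livers and 245 ± 48.1 in wild-type livers (SD, n = 4 each). By limma, the log2 difference was 0.31 in DKO tumor against wild-type liver (-0.16 to 0.78, adjusted p = 0.477). It was -0.01 in DKO liver against wild-type liver (-0.48 to 0.46, adjusted p = 0.991), the difference nearest 0 of the 30 computed, with both bounds of its interval within 0.48 of 0.

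Herpud1 (chr8:96910399-96919257) encodes an ER membrane protein that helps assemble the complex for degradation of misfolded proteins, and it was the member of the ER arm with a lower mean in both DKO groups than in wild-type liver. Its values were 107, 125, 198 and 157 RPKM in DKO tumors, 170.2, 118, 219 and 157 RPKM in DKO livers, and 171, 213, 190.1 and 200.1 RPKM in wild-type livers. DKO tumors 1, 2 and 4 and DKO livers 1, 2 and 4 were below every wild-type liver, while number 3 of each, from 1 animal, lay within or above the wild-type range. Means were 147 ± 39.9 RPKM in DKO tumors, 166 ± 41.8 in DKO livers and 194 ± 17.4 in wild-type livers (SD, n = 4 each). The wild-type livers spread little, with a highest value 1.24 times the lowest, against 1.85 times in DKO tumors and 1.86 times in DKO livers. The log2 difference was -0.43 in DKO tumor against wild-type liver (-0.93 to 0.07, adjusted p = 0.334 by limma) and -0.25 in DKO liver against wild-type liver (-0.75 to 0.25, adjusted p = 0.664).

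Dnajb9 (chr12:45306883-45311054) encodes ERdj4, an HSP40 co-chaperone of BiP. Its values were 27.3, 48.8, 44.9 and 41.8 RPKM in DKO tumors, 21.7, 25.5, 38.7 and 31.9 RPKM in DKO livers, and 25.7, 46.3, 48.3 and 33.2 RPKM in wild-type livers. DKO tumors and wild-type livers covered nearly the same range, and DKO livers 1 and 2 were below the lowest of either. Means were 40.7 ± 9.39 RPKM in DKO tumors, 29.5 ± 7.46 in DKO livers and 38.3 ± 10.8 in wild-type livers (SD, n = 4 each). Within each animal the tumor had more Dnajb9 than the liver, with log2 differences of 0.32, 0.91, 0.21 and 0.38 in animals 1 to 4. Over groups the difference was 0.45 in DKO tumor against DKO liver (-0.08 to 0.99, adjusted p = 0.391 by limma), and 0.10 in DKO tumor against wild-type liver (-0.44 to 0.63, adjusted p = 0.883).

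Sdf2l1 (chr16:17130230-17132475) encodes a soluble ER protein that works with BiP and its co-chaperones. Its values were 11.7, 27.6, 18.7 and 33.5 RPKM in DKO tumors, 12.6, 29.7, 25.9 and 22.9 RPKM in DKO livers, and 10.7, 15.1, 19.7 and 10.7 RPKM in wild-type livers. DKO livers 2, 3 and 4 and DKO tumors 2 and 4 exceeded every wild-type liver, and number 1 of both DKO groups was within the wild-type range. Means were 22.9 ± 9.61 RPKM in DKO tumors, 22.8 ± 7.31 in DKO livers and 14.1 ± 4.32 in wild-type livers (SD, n = 4 each). The log2 difference was 0.61 in DKO tumor against wild-type liver (-0.10 to 1.31, adjusted p = 0.336 by limma) and 0.64 in DKO liver against wild-type liver (-0.07 to 1.34, adjusted p = 0.442).

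Several ER members were low or high in the same libraries, in each of the 3 groups. DKO tumor 1 was the lowest tumor for 4 of the 5 ER members (Hspa5, Herpud1, Dnajb9 and Sdf2l1), and DKO liver 1, from the same animal, was the lowest DKO liver for 4 of 5 (Hspa5, Xbp1, Dnajb9 and Sdf2l1). Wild-type liver 1 was the lowest wild-type liver for 3 of 5, and wild-type liver 3 was the highest for 4 of 5. Averaged over the 5 genes, log2(RPKM + 1) was 6.32, 6.97, 6.82 and 6.95 in DKO tumors, 6.21, 6.62, 6.86 and 6.74 in DKO livers, and 6.23, 6.60, 6.86 and 6.42 in wild-type livers. The lowest library of each group thus lay at 6.21 to 6.32 in the 3 groups. Some of the 12 libraries share an animal or a tag in the file name, or are alike in depth. Over these 12 libraries, the 5 genes whose log2 levels were most like this average were Hdlbp (Pearson r = 0.95), Creld2 (0.95), 2210009G21Rik (0.94), Armet (0.94) and Gtf3c4 (0.94). Between pairs of the 5 ER members, Pearson r ran from 0.86 (Hspa5 and Sdf2l1) to -0.69 (Xbp1 and Herpud1). Hspa5 was at -0.04 with Herpud1, and at 0.75 with Ddit3 of the other arm. These correlations describe 12 libraries and carry no test. Armet is the older symbol of Manf, a secreted ER stress protein, Creld2 is an ER-resident protein, and Hdlbp encodes vigilin, an RNA-binding protein.

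Hspa5 and Herpud1 differed in sign, and their ratio was examined for that reason, after the values were seen. The ratio of Hspa5 to Herpud1 RPKM was 2.44, 3.85, 2.17 and 2.69 in DKO tumors, 1.24, 3.01, 1.97 and 2.36 in DKO livers, and 0.968, 1.35, 1.94 and 1.23 in wild-type livers. Every DKO tumor was above every wild-type liver in this ratio, and the DKO livers overlapped both. Of the 45 pairs of members, 5 had a ratio that separated DKO tumors from wild-type livers, 3 separated DKO livers from wild-type livers and 2 separated DKO tumors from DKO livers. Single genes separated DKO tumors from wild-type livers in 11.9% of all genes, and the share over all pairs of genes was not computed, so these counts say nothing particular of the members. The ratio of Sdf2l1 to Dnajb9 was among those that separated the DKO livers (0.582, 1.16, 0.668 and 0.717) from the wild-type livers (0.419, 0.328, 0.409 and 0.321). Both promoters printed above hold a letter match, to ERSE in Hspa5 and to ERSE-II in Herpud1. Within this pair a match to the CARE was found only in Herpud1. Any link of these matches to the ratio was not tested.

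In the ATF4 arm, Ddit3 had the highest log2 difference and the smallest p of the members, and Atf4 was the other gene below an unadjusted 0.05. Atf4 (chr15:80085613-80087970) encodes the transcription factor that both PERK and GCN2 act through, mainly by way of its translation. Its values were 97.0, 136, 102 and 121 RPKM in DKO tumors, 87.1, 135, 81.7 and 97.4 RPKM in DKO livers, and 83.6, 56.8, 91.8 and 97.1 RPKM in wild-type livers. DKO tumors 2, 3 and 4 were above all wild-type livers, and DKO tumor 1 was just below wild-type liver 4. Means were 114 ± 18.2 RPKM in DKO tumors, 100.3 ± 24.1 in DKO livers and 82.3 ± 17.9 in wild-type livers (SD, n = 4 each). By limma across all genes, the log2 difference was 0.48 in DKO tumor against wild-type liver (0.01 to 0.96, adjusted p = 0.254) and 0.28 in DKO liver against wild-type liver (-0.19 to 0.76, adjusted p = 0.597). Within animals the tumor was above the liver in 4 of 4, by log2 differences of 0.15, 0.01, 0.31 and 0.32. In animal 2 the exact Poisson intervals for counting error overlapped (131 to 141 RPKM in the tumor, 130 to 141 RPKM in the liver).

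Ddit3 (chr10:126727848-126733343) encodes CHOP, the transcription factor that carries prolonged ER stress towards cell death. Its values were 5.90, 13.6, 12.3 and 14.1 RPKM in DKO tumors, 7.69, 5.26, 13.0 and 5.69 RPKM in DKO livers, and 3.16, 4.39, 5.89 and 5.97 RPKM in wild-type livers. DKO tumors 2, 3 and 4 were above every wild-type liver, whereas DKO tumor 1 lay between wild-type livers 3 and 4, so that the groups overlapped by this library. Means were 11.5 ± 3.81 RPKM in DKO tumors, 7.92 ± 3.57 in DKO livers and 4.85 ± 1.34 in wild-type livers (SD, n = 4 each). Its fitted log2 difference was 1.06 with SE 0.30 in DKO tumor against wild-type liver (0.42 to 1.70, adjusted p = 0.0810 by limma). For DKO liver against wild-type liver it was 0.56 (-0.08 to 1.20, adjusted p = 0.452), and for DKO tumor against DKO liver 0.50 (-0.14 to 1.14, adjusted p = 0.428). Within animals the tumor was well above the liver in animals 2 and 4 (1.23 and 1.18) and slightly below it in animals 1 and 3 (-0.33 and -0.08).

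Whether Ddit3 passed depended on the scaling and on 1 library. Under median-of-ratios scaling the log2 difference in DKO tumor against wild-type liver was 1.09 and limma's adjusted p 0.0222, under quantile normalization the adjusted p was 0.0262, and without DKO liver 3, which enters only the shared estimate of spread, it was 0.048. Among the libraries tagged L03 alone (wild-type livers 3 and 4 and the 4 DKO tumors) the difference was 0.78, with adjusted p = 0.457. Ddit3 overlaps the end of Mars, the methionyl-tRNA synthetase gene, on the other strand, and the sources used here do not give whether counting used strand, so reads of the pair cannot be told apart. Mars itself averaged 23.9 RPKM in DKO tumors, 26.5 in DKO livers and 25.6 in wild-type livers, with a log2 difference of -0.10 in DKO tumor against wild-type liver (adjusted p = 0.783 by limma).

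**Figure D2:**
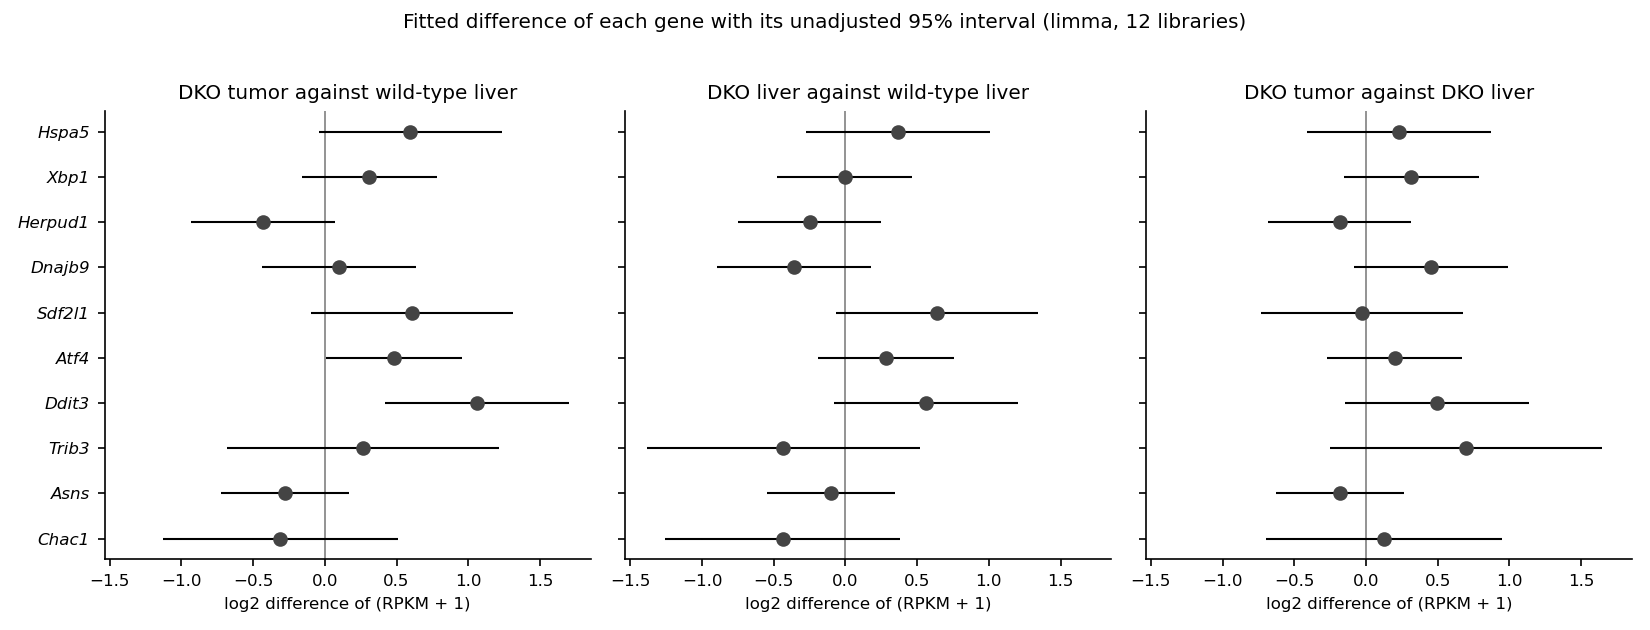
Log2 difference of each of the 10 stress genes with its unadjusted 95% interval from limma, for DKO tumor against wild-type liver, DKO liver against wild-type liver and DKO tumor against DKO liver; a vertical line marks 0. Only the tumor against wild-type intervals of Atf4 and Ddit3 stay above 0, and neither gene passes after adjustment (adjusted p = 0.254 and 0.0810).

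Trib3 (chr2:152163160-152169795) encodes a pseudokinase induced by ATF4 and CHOP that restrains their activity. Its values were 4.74, 3.57, 2.86 and 7.72 RPKM in DKO tumors, 3.19, 1.75, 3.28 and 1.58 RPKM in DKO livers, and 10.9, 1.79, 1.48 and 4.14 RPKM in wild-type livers. Wild-type liver 1 was the highest of all 12 libraries, and the wild-type livers spread 7.36-fold. DKO tumors 1, 2 and 4 were above every DKO liver. The difference was 0.70 in DKO tumor against DKO liver (-0.25 to 1.65, adjusted p = 0.450 by limma), and 0.27 in DKO tumor against wild-type liver (-0.68 to 1.22, adjusted p = 0.802).

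Asns (chr6:7625170-7643181) encodes asparagine synthetase, a classic target of ATF4 under amino acid shortage. Asns had 1.43, 1.23, 0.871 and 0.380 RPKM in DKO tumors, 1.42, 1.24, 1.18 and 0.951 RPKM in DKO livers, and 1.23, 1.01, 2.40 and 0.984 RPKM in wild-type livers. The lowest value, in DKO tumor 4, came from 11 reads (0.190 to 0.680 RPKM, exact Poisson interval for counting error only), in the tumor that had the highest Ddit3 and Trib3 of its group. DKO tumors 3 and 4 and DKO liver 4 were below every wild-type liver, and the groups otherwise overlapped. Its mean was 0.977 ± 0.460 RPKM in DKO tumors, 1.20 ± 0.192 in DKO livers and 1.41 ± 0.671 in wild-type livers (SD, n = 4 each). The log2 difference in DKO tumor against wild-type liver was -0.28 (-0.73 to 0.17, adjusted p = 0.499 by limma).

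Chac1 (chr2:119176993-119180116) encodes an enzyme that degrades glutathione and is induced by ATF4 and CHOP. It had 3.66, 1.18, 1.39 and 3.56 RPKM in DKO tumors, 3.91, 1.55, 2.22 and 0.939 RPKM in DKO livers, and 6.31, 2.52, 3.24 and 1.40 RPKM in wild-type livers. Number 1 was the highest library in each group, and wild-type liver 1 was the highest of all, as it was for Trib3. The fitted difference was -0.31 in DKO tumor against wild-type liver (-1.13 to 0.51, adjusted p = 0.717 by limma) and 0.13 in DKO tumor against DKO liver (-0.69 to 0.94, adjusted p = 0.907). Chac1 rested on 14 to 94 reads per library, and Asns on 11 to 55, against 3363 to 16142 for Hspa5. The widest interval of the 10 in DKO tumor against wild-type liver was that of Trib3 (SE 0.44), and the narrowest that of Asns (SE 0.21), on a scale whose offset compresses low values.

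The members of the ATF4 arm ranked the libraries differently. Atf4 was highest in number 2 of both DKO groups, whereas Trib3 was highest in DKO tumor 4, DKO liver 3 and wild-type liver 1. The 5 genes most like the average of this arm over the 12 libraries were AY358078 (Pearson r = 0.91), Cd9 (0.88), Cryzl1 (0.86), Htatip2 (0.86) and 4930488E11Rik (0.86). Cd9, a tetraspanin of the cell surface, averaged 38.9 RPKM in DKO tumors, 25.3 in DKO livers and 25.9 in wild-type livers.

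Within animals, the members were higher in the tumor for 6, 7, 3 and 8 of 10 genes in animals 1 to 4. Over all genes tested, the share higher in the tumor was 22.0%, 44.8%, 28.5% and 68.6%. The members' median log2 difference was 0.08, 0.26, -0.11 and 0.35 in animals 1 to 4, beside -0.38, -0.06, -0.16 and 0.21 over all genes. In each of these 4 animals the members' median was above that of all genes, and the members' direction differed between animal 3 and the others. For the members whose difference between DKO tumor and DKO liver is not given above, limma had 0.32 for Xbp1 (adjusted p = 0.496), -0.18 for Herpud1 (0.737), -0.03 for Sdf2l1 (0.978), 0.20 for Atf4 (0.696) and -0.18 for Asns (0.708). For DKO liver against wild-type liver it had -0.36 for Dnajb9 (adjusted p = 0.551), -0.43 for Trib3 (0.690), -0.10 for Asns (0.863) and -0.44 for Chac1 (0.638). Dnajb9 and Atf4 were the members higher in the tumor of 4 of 4 animals. The share of all genes higher in 4 of 4 was not computed, so this count says nothing particular of the members. With the animal as a block limma called 0 of 10 members and 71 of all genes.

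**Figure D3:**
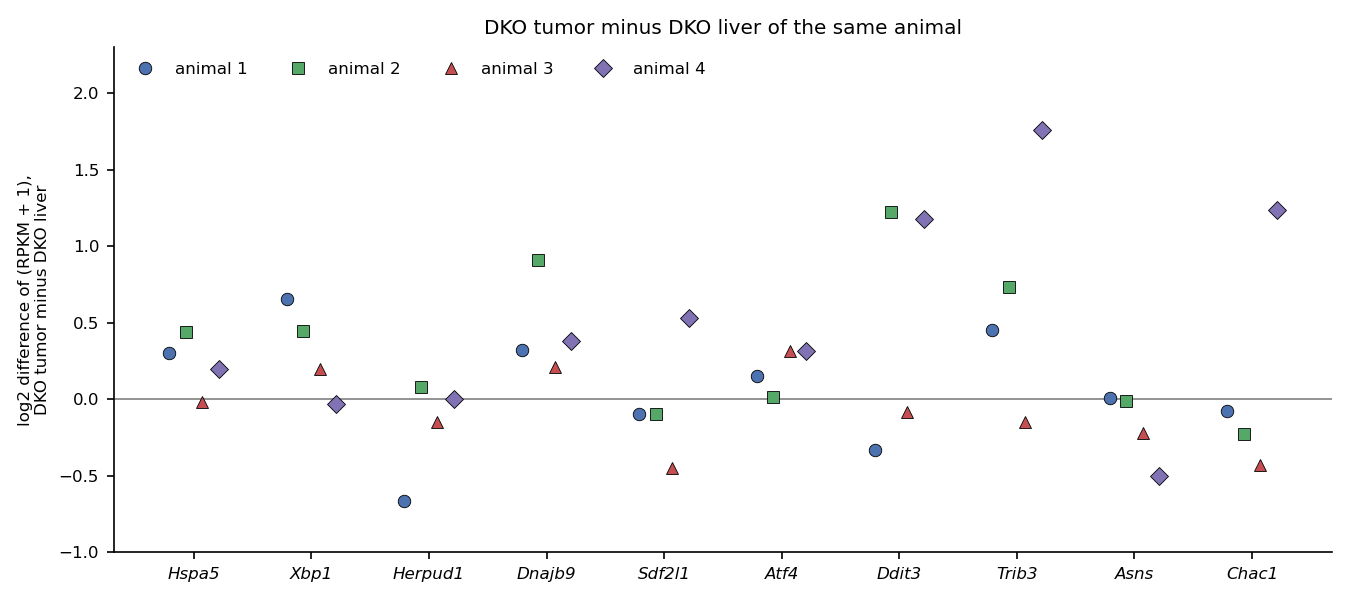
Log2 difference of (RPKM + 1) of each stress gene, DKO tumor minus DKO liver of the same animal, with a symbol for each of the 4 animals and a horizontal line at 0. Dnajb9 and Atf4 are above 0 in 4 of 4 animals, while Ddit3 is at 1.23 and 1.18 in animals 2 and 4 and at -0.33 and -0.08 in animals 1 and 3. The share of all genes above 0 in 4 of 4 animals was not computed.

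The wider pathways held a few genes that rose, all in DKO tumor against wild-type liver. In that comparison limma called 1.9% of all genes tested (216, of which 140 rose and 76 fell). In the amino acid list (synthesis and transport), 4 of 15 tested genes rose and 0 fell, with a median log2 difference of 0.67 beside -0.02 over all genes. Slc1a4, a transporter of neutral amino acids, had 8.80, 10.1, 3.33 and 15.0 RPKM in DKO tumors, 1.56, 2.32, 2.90 and 1.76 RPKM in DKO livers, and 1.62, 1.86, 1.96 and 1.80 RPKM in wild-type livers, with every tumor above every liver. Its log2 difference was 1.73 in DKO tumor against wild-type liver (adjusted p = 0.0215 by limma). Mthfd2, a mitochondrial folate enzyme, averaged 4.41 RPKM in DKO tumors, 1.91 in DKO livers and 1.56 in wild-type livers, a log2 difference of 1.12 in DKO tumor against wild-type liver (adjusted p = 0.0364 by limma). Aldh18a1, which starts proline synthesis, rose by 0.94 (adjusted p = 0.0319 by limma; 2.92, 2.03 and 1.03 RPKM in DKO tumors, DKO livers and wild-type livers), and Pck2, the mitochondrial form of PEP carboxykinase, by 0.91 (adjusted p = 0.0276; 3.27, 2.32 and 1.27 RPKM). Asns, the member closest to this list in function, was not among the genes that rose. The other 5 of the 20 genes, Aldh1l2, Pycr1, Slc7a11, Slc7a1 and Slc7a3, were below the filter.

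Among the stress outputs downstream of ATF4, 2 of 13 genes rose and 0 fell, beside 1.9% of all genes called, with a median of 0.59. Cdkn1a, the cell-cycle inhibitor p21 and a known target of p53, averaged 16.6 RPKM in DKO tumors, 13.2 in DKO livers and 3.27 in wild-type livers (log2 difference 2.13 in DKO tumor against wild-type liver, adjusted p = 0.0474 by limma). Tnfrsf10b, a death receptor induced by p53 and, in human cells, by CHOP, averaged 1.52 RPKM in DKO tumors, 0.461 in DKO livers and 0.310 in wild-type livers (0.94, adjusted p = 0.0472 by limma). Among the 22 sensors and regulators, Atf3 alone rose and 0 fell, beside the same 1.9% of all genes, with a median of 0.04. Atf3, a stress-induced transcription factor downstream of ATF4, had 3.24, 9.64, 7.19 and 18.2 RPKM in DKO tumors, 3.56, 2.47, 8.62 and 2.62 RPKM in DKO livers, and 0.507, 1.19, 2.55 and 0.960 RPKM in wild-type livers. Each DKO tumor exceeded each wild-type liver in Atf3, and the log2 difference was 2.07 (adjusted p = 0.0382 by limma).

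The protein-folding lists held no gene that passed, beside 1.9% of all genes tested in DKO tumor against wild-type liver. In the 22 chaperones and folding enzymes of the ER, 0 rose and 0 fell, with a median of 0.15 and 18 of 22 positive. Its 3 genes with the smallest p were Dnajc10, a reductase of the ER (0.57, adjusted p = 0.122), Ero1l, an oxidase of the ER (0.45, adjusted p = 0.185) and Stch, now Hspa13 (0.48, adjusted p = 0.233), by limma. In the 22 genes of ER degradation and translocation, 0 rose and 0 fell, with a median of 0.11, and Derl2 (-0.42, adjusted p = 0.122), Srprb (0.50, adjusted p = 0.214) and Os9 (-0.46, adjusted p = 0.270) had the smallest p by limma. In the 21 cytosolic tRNA synthetases and partners, 0 rose and 0 fell, with a median of 0.13, and Cars (0.69, adjusted p = 0.139), Gars (0.59, adjusted p = 0.180) and Xpot (-0.32, adjusted p = 0.244) came first. No gene of these 6 lists was called by limma for DKO liver against wild-type liver, or for DKO tumor against DKO liver. Of all genes tested, 0% and 0.00881% were called there.

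Whether these 7 genes passed depended on single libraries, while every difference stayed positive. With single libraries left out, the log2 difference in DKO tumor against wild-type liver ranged from 1.47 to 2.10 for Slc1a4, 0.84 to 0.97 for Pck2, 0.79 to 1.06 for Aldh18a1, 0.91 to 1.30 for Mthfd2, 1.71 to 2.44 for Atf3, 1.93 to 2.47 for Cdkn1a and 0.85 to 1.02 for Tnfrsf10b. Of the 12 fits that each left out 1 library, Slc1a4 passed in 8, Aldh18a1 in 7, Atf3, Mthfd2 and Pck2 in 6 each, and Cdkn1a and Tnfrsf10b in 4 each. Without DKO tumor 2, limma's adjusted p of the 7 genes was 0.0678 for Slc1a4, 0.0953 for Pck2, 0.0688 for Aldh18a1, 0.104 for Mthfd2, 0.115 for Atf3, 0.135 for Cdkn1a and 0.134 for Tnfrsf10b. Leaving out wild-type liver 1 or wild-type liver 4 also ended all 7 calls (0.0866 and 0.0748 for Slc1a4, the lowest of the 7 in each), and leaving out DKO tumor 1 ended all but that of Atf3 (0.0575 for Slc1a4, 0.0637 for Pck2, 0.0748 for Aldh18a1 and for Tnfrsf10b, 0.0771 for Mthfd2, 0.0884 for Cdkn1a). Without DKO tumor 4 the calls of Pck2 (0.0523), Aldh18a1 (0.0546), Atf3 (0.0645), Mthfd2 (0.0753) and Tnfrsf10b (0.0831) ended, and without wild-type liver 2 those of Pck2 (0.0621), Tnfrsf10b (0.0699), Mthfd2 (0.0799) and Atf3 (0.0856). The calls of Cdkn1a and Tnfrsf10b also ended without wild-type liver 3 (0.0723 and 0.0617) and without DKO liver 2 (0.0594 and 0.0551), those of Cdkn1a and Atf3 without DKO liver 1 (0.0594 and 0.0526), and that of Cdkn1a without DKO tumor 3 (0.0656). With the file-name tag (L02 or L03) as a covariate the differences were 1.69 for Slc1a4, 0.93 for Pck2, 0.995 for Aldh18a1, 0.81 for Mthfd2, 1.80 for Atf3, 2.40 for Cdkn1a and 0.92 for Tnfrsf10b. None of the 7 passed in that fit by limma, with adjusted p from 0.187 to 0.356, and within tag L03 Cdkn1a alone did (adjusted p = 0.0349, against 0.210 to 0.405 for the other 6). With no filter on low values none of the 7 passed (adjusted p 0.105 to 0.152 by limma), nor did any without animals 1 and 2 (0.149 to 0.278), and voom ended the calls of Atf3 (0.0755), Cdkn1a (0.0703) and Tnfrsf10b (0.0583). An offset of 0.1 ended the call of Tnfrsf10b (0.0643), and the stricter filter, a mean of at least 2 RPKM, ended that of Cdkn1a (0.0537) and left out Tnfrsf10b and Aldh18a1.

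**Figure D4:**
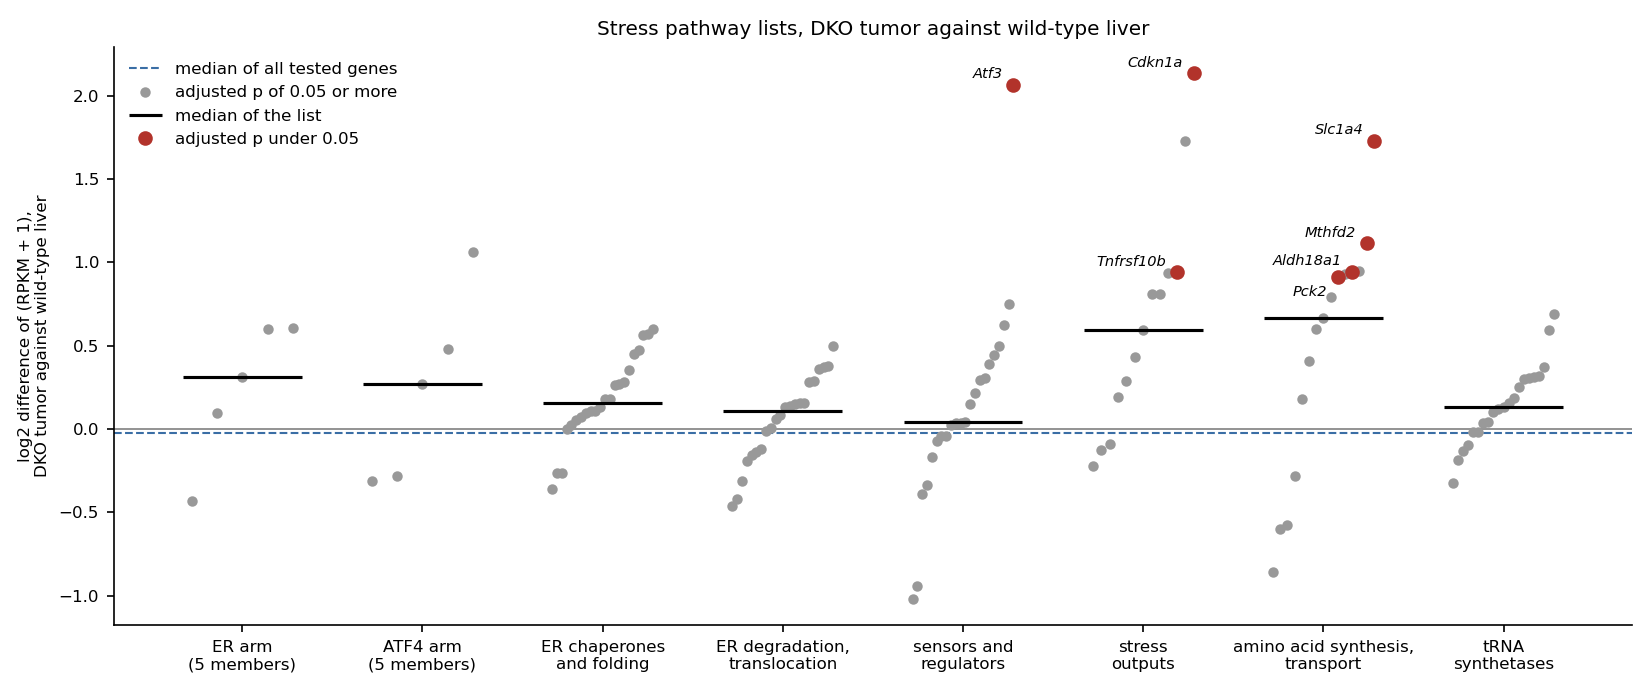
Log2 difference of every tested gene of the 6 pathway lists and of both arms of the stress genes in DKO tumor against wild-type liver; each point is a gene, the short bars are list medians, the dashed line is the median of all tested genes, and red points passed limma's adjusted p under 0.05. The 7 red points are Slc1a4, Mthfd2, Aldh18a1, Pck2, Atf3, Cdkn1a and Tnfrsf10b, and the 10 stress genes have none.

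Depth ranged from 7.985 to 15.956 M reads per library. E2f7 was at 0.036 to 0.259 RPKM in DKO tumors, 0.211 to 0.400 in DKO livers and 0.103 to 0.200 in wild-type livers, and E2f8 at 1.66 to 12.2, 2.80 to 20.8 and 1.66 to 4.30 RPKM in the same groups; these are sums over all exons and do not check the deletion. File names carry the tag L03 for wild-type livers 3 and 4 and each DKO tumor, and L02 for wild-type livers 1 and 2 and each DKO liver. The labels do not say what the tag stands for. No tag holds both DKO tumors and DKO livers, so a tag effect on their difference can be estimated only through the wild-type livers. With the tag as a covariate that difference was -0.24 for Hspa5, -0.25 for Atf4 and -0.05 for Ddit3, against 0.23, 0.20 and 0.50 without it, and limma called 0 members. Arntl, a clock gene, was at 9.24 and 10.9 RPKM in DKO tumors 1 and 2 and 11.2 and 9.95 RPKM in DKO livers 1 and 2, against at most 2.26 RPKM in the other 8 libraries. Without animals 1 and 2 the log2 difference of Ddit3 in DKO tumor against wild-type liver was 1.31 (adjusted p = 0.161 by limma) and 0 members were called. In bulk tissue, fewer cells of a type and less RNA per cell cannot be told apart.

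Cells that secrete much protein have high levels of several of these genes, and their markers were summed per library. The 8 hepatocyte markers summed to 69251 to 125923 RPKM in DKO tumors, 37662 to 110929 in DKO livers and 46612 to 72776 in wild-type livers, with 0 of 8 at 0. Alb made up most of this sum (109387 RPKM in DKO tumor 1), and in DKO tumor against wild-type liver 4 of the 8 had positive log2 differences (Alb 0.79) and 4 negative ones (Ttr -0.82, Serpina1c -0.87, Cps1 -0.83 and Tat -0.53), with 0 called by limma. The 11 plasma and B cell markers summed to 52.6 to 117 RPKM in DKO tumors, 115 to 181 in DKO livers and 61.6 to 92.5 in wild-type livers, with 0 of 11 at 0 in all libraries of a group. Of the 8 pancreatic acinar markers, Cpa1, Amy2-2, Pnlip and Ctrb1 were at 0 in each DKO tumor and wild-type liver, as was Cpb1 in DKO tumors, and of the 8 only Amy2-2 was at 0 in all DKO livers. The 8 acinar markers summed to 13.2 to 59.0, 10.1 to 21.6 and 18.2 to 57.5 RPKM in DKO tumors, DKO livers and wild-type livers. Ela1 made up most of this sum (56.9 RPKM in DKO tumor 2 and 53.8 RPKM in wild-type liver 1), and Ela2a nearly all of the rest. The 8 macrophage markers summed to 94.8 to 308, 238 to 644 and 120 to 355 RPKM in the same order of groups. Their part in the values of the stress genes was not tested.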

How the data were processed

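RNA was sequenced from 4 DKO tumors, 4 DKO livers and 4 wild-type livers. Per the labels, the RNA was polyadenylated RNA and the platform SOLiD, and per the submitters' processing notes BWA and mm9 were used, without versions or roles. The sources used here do not give the counting tool. The deposited values are RPKM per RefSeq transcript, as made by the authors, for 21247 transcripts of 19012 symbols, of which 1520 have several; the longest was kept. All RPKM were whole multiples of 1 read within 0.05 of a read (100% of values), which gave reads and depth: 1 read in 2 kb of exon is 0.0313 to 0.0626 RPKM. Reads lack molecular identifiers, so intervals cover counting error only.

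A gene was tested where 4 or more libraries had at least 0.5 RPKM, with limma 3.58.1 (R 4.3.3; trend and robust shrinkage) on log2(RPKM + 1), with a mean per group over 12 libraries, two-sided, with Benjamini-Hochberg adjustment at 0.05. The fit was tested on simulated data. Tables and motif searches used Python 3.11.15 and pandas 2.3.3. Replicates are separate animals within a group, by their codes.

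The members, lists and tests were chosen with earlier results of these data known. All 10 members are described; of each pathway list, the genes called are named, or else the 3 with the smallest p in DKO tumor against wild-type liver, and of each arm the 5 genes most like its average. The ratios of members and the clock genes shown were chosen after their values were seen. DKO tumor and DKO liver of a number come from 1 animal, and their deviations from group means correlated at 0.12, 0.35, 0.37 and 0.00285. The highest correlation of each tumor with a DKO liver of another number was 0.15, 0.0099, -0.05 and 0.09. The labelled pair was thus the highest for animals 2 and 3 only. Alternatives were other scalings, offsets, filters and transcript choice, voom on recovered reads, file-name tag, animal block, and each library left out.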

Additional observations from a re-analysis of the deposited data

Results flagged for a closer look

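Tnfrsf10b, the death receptor, stood apart in 1 library: DKO liver 3 had 1.27 RPKM, while the other DKO livers had 0.106 to 0.255 RPKM. The gap to the nearest of the others was 0.872 of the group's range. It was the only such library among 51 groups of values (17 genes in 3 groups), where chance flags about 1 in 20. DKO liver 3 was also the highest DKO liver for Ddit3 (13.0 RPKM), Atf3 (8.62 RPKM) and Cdkn1a (29.0 RPKM). Markers of other cell types were high in the same library: the 8 cholangiocyte markers summed to 177 RPKM in DKO liver 3 and to 34.8 to 51.8 RPKM in the other DKO livers, and the 8 stellate cell and fibroblast markers to 128 RPKM in DKO liver 3 and to 45.7 to 70.5 RPKM in the others. Their part in the stress gene values was not tested.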

How the results depend on the processing

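Of 707 recomputed values of the members, 671 kept their direction and their side of the threshold, 32 turned in direction and 4 came past the threshold, all 4 for Ddit3 in DKO tumor against wild-type liver. In that comparison 1 member was called under median-of-ratios scaling, under quantile normalization and with the replicate block, and 0 to 1 when single libraries were left out; in the other comparisons 0 members were called in all settings run. The replicate block, with limma's adjusted p = 0.0403 for Ddit3, pairs tumors with wild-type livers that share only a number (correlations of deviations 0.02, -0.10, 0.02 and 0.05). In DKO tumor against DKO liver, paired by animal, the block raised the genes called to 71, with 0 members. Genes called in DKO tumor against wild-type liver were 216. They were 606 under median-of-ratios scaling, 478 under quantile normalization, 1 with no filter, 3 with the file-name tag as covariate and 25 within L03. They were 128 with the block, 10 without animals 1 and 2, and 16 to 413 when single libraries were left out (37, 20 and 413 without DKO tumors 1, 2 and 3, and 21, 83 and 16 without wild-type livers 1, 2 and 4). In DKO liver against wild-type liver the count of 0 (1408 genes at unadjusted p under 0.05; 0 by voom) became 1 under median-of-ratios scaling, in the 8 libraries alone and without animals 1 and 2, and 0 to 2 with single libraries left out. In DKO tumor against DKO liver the gene called, Kif5c, is no member. The count of 1 became 24 under quantile normalization, 2 with no filter, 0 with the stricter filter and 55 in the 8 libraries alone. It became 0 with the tag covariate, 0 without animals 1 and 2, and 1 to 363 with single libraries left out (363 without DKO tumor 3). The cause was not tested. In DKO tumor against wild-type liver, Dnajb9 turned to -0.0089 with the tag covariate and within L03 (left-out range -0.0764 to 0.27), and Chac1 to 0.0238 with both. Trib3 ranged from -0.0238 to 0.73 with libraries left out. In DKO liver against wild-type liver, Xbp1 turned to 0.0918 under quantile normalization, 0.11 with the tag covariate and within L02 and 0.058 without animals 1 and 2 (left-out range -0.13 to 0.0922). Asns turned to 0.0466 with the tag covariate and within L02 (-0.18 to 0.0786), and Trib3 ranged from -0.72 to 0.0302. In DKO tumor against DKO liver, Sdf2l1 turned to 0.10 under median-of-ratios scaling, 0.0814 under quantile normalization and 0.0408 without animals 1 and 2 (left-out range -0.28 to 0.24). Herpud1 turned to 0.0678 under quantile normalization. With the tag covariate Hspa5 turned to -0.24, Atf4 to -0.25 and Ddit3 to -0.0512, and Chac1 ranged from -0.0802 to 0.37 with libraries left out. Median-of-ratios scaling moved the median of all genes in that comparison to 0.02, against -0.09. Asns has no value under the stricter filter, and no tag holds both DKO tumors and DKO livers. Asns rested on 11 to 55 reads per library, and the smallest difference that could be detected was not computed.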
